A study of Mus musculus with 6 samples.

Results

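The genes described here are 38 genes of T cells and natural killer (NK) cells, read in RNA from liver endothelial cells (ECs) that were sorted as CD31+CD45-. They were chosen by name, from a list of T and NK cell markers, and all 38 were present among the 24421 genes of the count table and also in the FPKM table. The samples came from wild-type (WT) C57BL/6J mice, 3 of them young (10-week-old) and 3 aged, of 127, 131 and 136 weeks. The mice of the study were female, and no treatment is named in the labels. Each library came from RNA of 50000 sorted cells, and whether cells of several mice were pooled is not stated, so that p-values measure the spread between these samples. Animals with evident organ disease were not used, and no pathology findings accompany these samples.

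T cells recognise antigen through a receptor that signals through the CD3 chains and the zeta chain (Cd247), whose tails are phosphorylated by the kinase Lck and then bind the kinase Zap70. CD4 and CD8 are the coreceptors of helper and of cytotoxic T cells. NK cells carry no such receptor and use receptors encoded in the Klr gene cluster and by Ncr1, and both cytotoxic T cells and NK cells kill with perforin and granzymes. The liver sinusoids hold many T, NK and NK-like T cells in contact with the endothelium. All of these cells carry CD45 (Ptprc) on their surface, the protein that the sort was meant to leave out.

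Total counts ran from 23001556 to 31651817 per sample, so that 3 counts, taken as the floor of detection, stood for 0.0947 to 0.135 CPM (counts relative to the TMM-adjusted library size). The floor and the intervals below cover counting error only, since reads lacking molecular identifiers can be copies of one molecule. Pecam1 (CD31), on which the cells were sorted, had between 425 and 506 FPKM in the 6 samples. Endothelial genes were not all so even. Of 16 listed, 12, 10 and 10 were below the lowest young sample at 127, 131 and 136 weeks. No share over all genes was taken for this count, so it has no baseline here. Stab2 had 348 to 384 FPKM in the young and 59.6, 210 and 64.8 in these aged samples. Lars2 and Rn45s, symbols that collect ribosomal RNA reads, took 1.29% of the counts of young replicate 3 (95% Wilson interval 1.28% to 1.29%), 0.960% of those at 127 weeks (0.957% to 0.964%) and between 4.68% and 5.53% of those of the other 4 samples. These 2 clusters of libraries each hold both ages, and the first pooled value below is also given within each. Replicates of the same age differed by far more than counting noise, with a chi-square of at least 20.2 per degree of freedom.

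The T and NK cell genes were high in 2 of the 3 aged samples and not in the third. Summed over the 38 genes, the young replicates 1, 2 and 3 had 827, 710 and 810 counts, and the aged samples had 1795 (127 weeks), 734 (131 weeks) and 4718 (136 weeks). The exact 95% Poisson intervals were 1713 to 1880 counts at 127 weeks, 682 to 789 at 131 weeks and 4584 to 4855 at 136 weeks. In this sum the 131-week sample thus lay among the young samples, and the other 2 aged samples lay above all of them. In bulk RNA more cells of a type and more RNA per cell cannot be told apart. On the log2(CPM + 1) scale the summed level was 1.23 higher in aged than in young samples. It was 1.22 higher among the 4 libraries rich in Lars2 and Rn45s and 1.24 higher between the other 2. The 1.22 averages 2 unlike aged samples, of 28.6 CPM (131 weeks) and 192 CPM (136 weeks), and the 1.24 compares 1 sample of each age. Their closeness is therefore not a repeat of the same difference. The log2 ratio of the mean summed CPM, aged over young, was 1.67, and it was 0.62 without the 136-week sample and 2.10 without the 131-week sample.

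**Figure D1:**
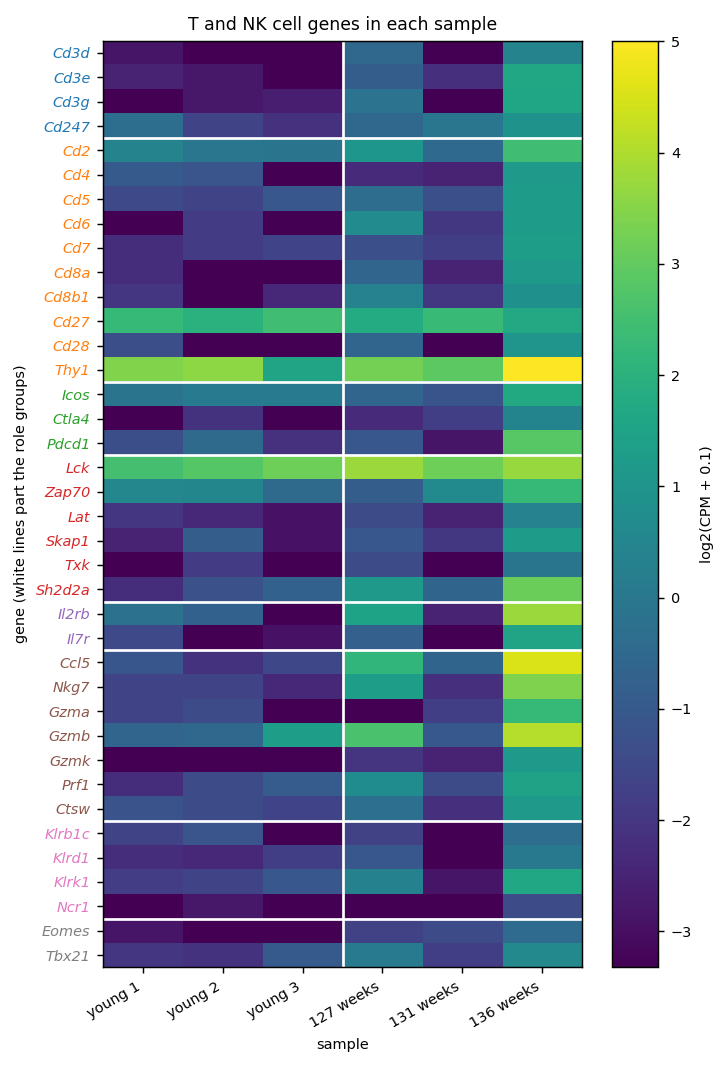
Level of each of the 38 genes (rows, coloured by role) in each of the 6 samples (columns), as log2(CPM + 0.1). The 136-week column is the brightest for 36 of the 38 genes, and the 131-week column resembles the young columns.

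Gene by gene, the 136-week sample exceeded the highest young sample for 37 of 38 genes, against 34.1% of the 14612 genes tested. The 127-week sample did so for 26 genes (30.5% of genes tested) and the 131-week sample for 9 (26% of genes tested). A level at least 2-fold above the highest young sample, with at least 10 counts, was seen for 34 genes at 136 weeks, 15 at 127 weeks and 0 at 131 weeks, while 10.8%, 4.64% and 2.46% of the genes tested reached it in these samples. No gene of the list had a count of 0 at 136 weeks, whereas 2 did at 127 weeks and 8 at 131 weeks. In the young samples 6, 7 and 14 of the 38 genes were at 0. Only Cd27, a costimulatory receptor, stayed below its highest young value in each aged sample. The 26 genes that were above the young range at 127 weeks were also above it at 136 weeks. By role, these were 3 of 4 genes of the receptor complex, 7 of 10 coreceptors and other surface receptors, 0 of 3 activation receptors, 4 of 6 signalling proteins, both cytokine receptors, 6 of 7 cytotoxic genes, 2 of 4 NK receptors and both T-box factors.

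**Figure D2:**
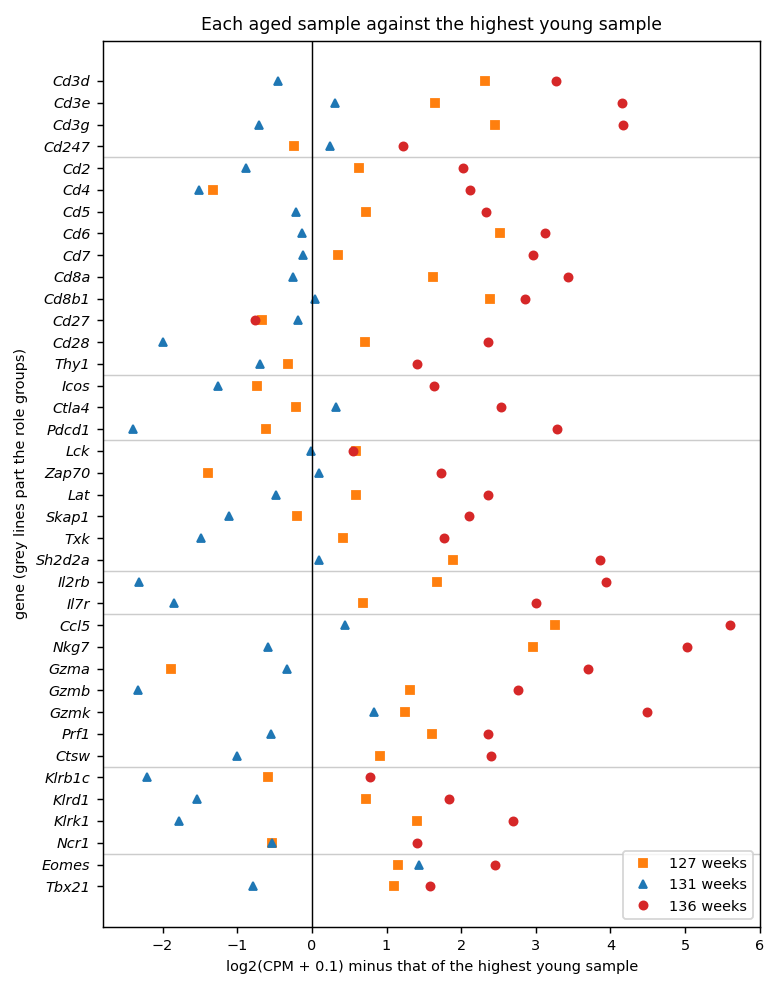
Difference in log2(CPM + 0.1) between each aged sample and the highest of the 3 young samples, for each of the 38 genes. Circles (136 weeks) lie right of 0 for 37 genes, squares (127 weeks) for 26 and triangles (131 weeks) for 9.

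In the comparison of the 2 ages, 37 of the 38 genes reached 0.5 CPM in at least 1 sample and were tested, and Ncr1 did not. Of the 37, 26 reached that level through aged samples alone, so that their direction was set by the filter, and counts over the genes tested are given as a description. With edgeR's quasi-likelihood test 0 members passed both thresholds (adjusted p 0.05, log2 ratio beyond 1 in size), as did 0 of the 14612 genes, 0% in either direction. With the unadjusted p in its place, 12 members were higher and 0 lower, where 5.43% of all genes tested were higher and 1.19% lower. All of these 12 but Sh2d2a passed the filter through aged samples alone and could hardly have come out lower, so the contrast is no support. Of the 12, 3 belonged to the receptor complex, 3 to the coreceptors and other surface receptors, 1 to the signalling proteins, 4 to the cytotoxic genes and 1 to the T-box factors. Without the limit on the ratio, Lck joined them and made 13 (8.32% of genes tested). Without the filter on low values, 16 of all 38 members were higher by both limits on the unadjusted p and the ratio, against 4.93% of 18489 genes. The median log2 ratio of aged over young, as edgeR fits it, was 2.68 over the 37 members and 0.0098 over all genes tested, and 2.55 over all 38 members without the filter. With DESeq2's Wald test 5 members, Ccl5, Nkg7, Sh2d2a, Gzmk and Cd3e, were higher by both thresholds and 0 were lower (2.7% of genes tested were higher and 0.541% lower). DESeq2 was given the same filtered genes, and of these 5 only Sh2d2a did not pass the filter through aged samples alone. For 7 members DESeq2 gave no adjusted p.

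The count rested on which aged samples entered. Without the 131-week sample, 24 of 37 members were higher by the unadjusted rule (7.71% of genes tested), and the median log2 ratio was 3.25. Without the 136-week sample, 25 members were tested, 1 of them met the rule (2.75% of genes tested), and the median was 1.33. With all samples the aged values lay wholly above the young values for 6 members (9.62% of genes tested), namely Cd3e, Cd8b1, Sh2d2a, Ccl5, Gzmk and Eomes. Without the 131-week sample this held for 26 members (18.5% of genes tested), without young replicate 3 for 11 (17%) and without the 136-week sample for 3 (12.5%). Of the 6 named, all but Sh2d2a passed the filter through aged samples alone. At 131 weeks Cd3e and Gzmk had 3 and 2 counts, no more than the floor. There Cd8b1 and Sh2d2a stood at only 1.05 and 1.08 times the highest young CPM.

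**Figure D3:**
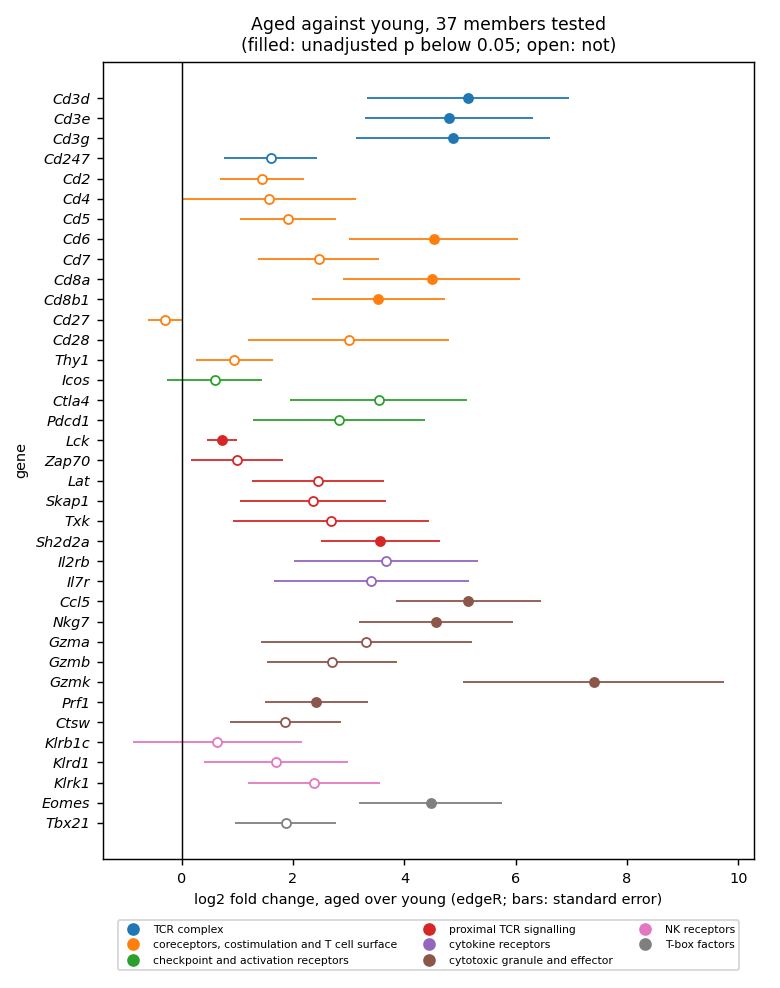
Log2 fold change of aged over young samples from edgeR, with its SE as a bar, for the 37 genes tested (3 samples per age). Filled points have an unadjusted p below 0.05, and Cd27 is the only gene left of 0. The value of Gzmk rests on a young count of 0 in every sample and is not a bound.

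The CD3 chains of the T cell receptor complex were at or under the floor in the young samples. Cd3d (chromosome 9, 44789876 to 44795135 of mm9) had 1, 0 and 0 counts in young replicates 1, 2 and 3, and 17, 0 and 30 counts at 127, 131 and 136 weeks. Its neighbour Cd3e (chromosome 9, 44806826 to 44817673) had 2, 1 and 0 counts in the young and 13, 3 and 74 in the aged samples. Cd3g, the third chain of this cluster, had 0, 1 and 2 counts in the young and 23, 0 and 70 in the aged samples. All 3 CD3 genes were thus at or below 3 counts in the young and the 131-week samples and well above that floor in the other 2. The log2 ratio was 4.80 for Cd3e (SE 1.51, unadjusted p = 0.0147) and 5.14 for Cd3d (SE 1.81, unadjusted p = 0.0240), with adjusted p of 0.301 and 0.334 in edgeR. Cd247, the zeta chain, had 19, 5 and 4 counts in the young and 17, 22 and 44 in the aged samples, and its 127-week value lay within the young range. Of the exon bases of Cd247 55.9% also lie in exons of Pou2f1 on the other strand, and since it is not stated whether counting used the strand, reads of the 2 genes cannot be told apart.

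Of the coreceptors, the pair that forms CD8 was seen in both high samples, and Cd4 in one. Cd8a (chromosome 6, 71323421 to 71329165) had 3, 0 and 0 counts in the young and 16, 2 and 54 in the aged samples. Cd8b1 (chromosome 6, 71272830 to 71287471) had 4, 0 and 3 counts in the young and 35, 4 and 42 in the aged samples, with a log2 ratio of 3.53 ± 1.19 (SE), an unadjusted p of 0.0199 and, in edgeR, an adjusted p of 0.325. Cd4 had 11, 8 and 0 counts in the young and 3, 2 and 52 in the aged samples, so that only the 136-week sample exceeded the young range. In FPKM, which allows for gene length, the 127-week sample held 0.947 of Cd8b1, 0.186 of Cd8a and 0.0232 of Cd4, and the 136-week sample 1.36, 0.720 and 0.702.

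The surface receptors that tune the T cell response went the same way in most cases. Cd6 (chromosome 19, 10863831 to 10904548), a receptor for an adhesion ligand, had 0, 4 and 0 counts in the young and 44, 4 and 58 in the aged samples, with a log2 ratio of 4.52 ± 1.51 (SE), an unadjusted p of 0.0191 and, in edgeR, an adjusted p of 0.323. Its neighbour Cd5, an inhibitory receptor, had 7, 5 and 12 counts in the young and 20, 8 and 57 in the aged samples. The adhesion receptor Cd2 was already measurable in the young samples, with 33, 19 and 26 counts, and had 57, 16 and 131 in the aged samples. For these 3 genes the 131-week sample lay at or near the young values. Cd28, the main costimulatory receptor, had 8, 0 and 0 counts in the young and 16, 0 and 48 in the aged samples. Cd7 had 3, 4 and 7 counts in the young and 9, 5 and 59 in the aged samples. These 2 genes were above the young range at 127 weeks by few counts and clearly so at 136 weeks.

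Cd27, Lck and Thy1 differed from the rest in that they made up most of the young counts of the list. Thy1, a surface protein of mouse T cells that stromal and neural cells also carry, had 287, 265 and 90 counts in the young and 279, 189 and 788 in the aged samples, with a log2 ratio of 0.94 (adjusted p = 0.635 in edgeR). Cd27 had 125, 86 and 172 counts in the young and 98, 122 and 78 in the aged samples, a log2 ratio of -0.31 (adjusted p = 0.741 in edgeR). Its lowest value was at 136 weeks, where nearly every other member was highest. When these 3 genes were left out, which was decided after their values were seen, the other 35 summed to 262, 206 and 266 counts in the young and 1026, 197 and 3529 in the aged samples. That is 3.86, 0.838 and 15.7 times the young mean in CPM at 127, 131 and 136 weeks, against 2.10, 0.969 and 6.50 times for all 38. For the 35 genes the 131-week sum, 7.66 CPM, was below each young sum (8.39 to 9.75 CPM). Its 95% Poisson interval of 170 to 227 counts held the lowest young count, 206.

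The 3 listed receptors of activated and regulatory T cells stood out in the 136-week sample alone. Pdcd1 (PD-1; chromosome 1, 95934884 to 95949130), an inhibitory receptor of activated T cells, had 8, 14 and 4 counts in the young and 11, 1 and 173 in the aged samples. Icos, a costimulator induced on activation, had 22, 21 and 31 counts in the young and 16, 9 and 80 in the aged samples. Ctla4, an inhibitor that regulatory T cells hold in large amounts, had 0, 3 and 0 counts in the young and 3, 5 and 31 in the aged samples. None of the 3 exceeded the young range at 127 weeks, where most genes of the list did, and Ctla4 alone did at 131 weeks. Such receptors outside the list differed. Havcr2, Tnfrsf9 and Tigit were above the young range at 127 weeks (70, 49 and 23 counts), and Lag3 was not. These were chosen after their values were seen. The log2 ratio was 3.54 for Ctla4 (SE 1.59, adjusted p = 0.419) and 2.83 for Pdcd1 (SE 1.55, adjusted p = 0.512) in edgeR. Without the 136-week sample the value for Pdcd1 was -0.70.

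The signalling proteins below the receptor were mixed. Lck (chromosome 4, 129225588 to 129250885) was measured well above the floor in each sample, with 153, 153 and 282 counts in the young and 392, 226 and 323 in the aged samples. Its log2 ratio was 0.72 ± 0.27 (SE), with an unadjusted p of 0.0309 and, in edgeR, an adjusted p of 0.355. That SE was the smallest of the list. Sh2d2a (chromosome 3, 87650677 to 87659644), an adaptor that binds Lck, had 3, 7 and 16 counts in the young and 62, 14 and 213 in the aged samples, with a log2 ratio of 3.57 ± 1.07 (SE), an unadjusted p of 0.0116 and, in edgeR, an adjusted p of 0.282. Zap70 had 36, 29 and 20 counts in the young and 13, 37 and 115 in the aged samples, so that its 127-week value was the lowest of the 6. Lck, Sh2d2a and Zap70 thus had at least 3 counts in each sample, and the next 3 genes did not. The adaptor Lat, which the receptor kinases phosphorylate, had 4, 2 and 1 counts in the young and 8, 2 and 29 in the aged samples. The adaptor Skap1 had 2, 10 and 1 counts in the young and 11, 4 and 56 in the aged samples. The kinase Txk had 0, 4 and 0 counts in the young and 8, 0 and 21 in the aged samples.

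The receptors for interleukin-2 and interleukin-15 (Il2rb) and for interleukin-7 (Il7r) were low in the young samples. Il2rb (chromosome 15, 78310983 to 78325496) had 21, 11 and 0 counts in the young and 79, 2 and 330 in the aged samples, with a log2 ratio of 3.67 ± 1.65 (SE), an unadjusted p of 0.0597 and, in edgeR, an adjusted p of 0.419. Il7r, which naive and memory T cells carry, had 7, 0 and 1 counts in the young and 14, 0 and 69 in the aged samples, with a log2 ratio of 3.41 ± 1.75 (SE) and, in edgeR, an adjusted p of 0.481. Both were below 3 counts at 131 weeks.

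The cytotoxic genes together made 23.6 FPKM at 127 weeks and 110 at 136 weeks, more than any other role group in these samples. They made 1.85 to 3.19 FPKM in the young and 2.51 in the 131-week samples. Ccl5 alone made 13.4 FPKM at 127 weeks and 67.7 at 136 weeks. In summed CPM the group had 15.3 at 127 weeks, below the coreceptors and other surface receptors (19.8) and the signalling proteins (17.0). At 136 weeks it had the most, 61.8 CPM. Ccl5 (chromosome 11, 83339280 to 83344020), a chemokine that cytotoxic T cells and NK cells store and release, had 10, 3 and 8 counts in the young and 128, 14 and 564 in the aged samples. Its CPM was 0.253 ± 0.118 in young and 9.28 ± 12.0 in aged samples (SD, n = 3 each), with a log2 ratio of 5.15 ± 1.30 (SE), an unadjusted p of 0.00504 and, in edgeR, an adjusted p of 0.243. This was the smallest p of the list. Nkg7 (chromosome 7, 50692443 to 50693616), a protein of the cytotoxic granule membrane, had 6, 5 and 3 counts in the young and 71, 3 and 258 in the aged samples. Its CPM was 0.181 ± 0.0750 in young and 4.35 ± 5.44 in aged samples (SD, n = 3 each), with a log2 ratio of 4.57 ± 1.39 (SE), an unadjusted p of 0.0123 and, in edgeR, an adjusted p of 0.288. In both genes the spread of the aged samples exceeded their mean.

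The granzymes differed from each other. Gzmb (chromosome 14, 56877693 to 56881097), the protease that starts apoptosis in target cells, had 15, 13 and 75 counts in the young and 176, 10 and 410 in the aged samples. Gzma (chromosome 13, 113884033 to 113891187) had 6, 6 and 0 counts in the young and 0, 5 and 116 in the aged samples, and its neighbour Gzmk had 0, 0 and 0 in the young and 4, 2 and 53 in the aged samples. Gzmb was therefore above the young range in both high samples, and Gzma and Gzmk stood well above the floor only at 136 weeks. Against 3 counts in each young library, the aged mean CPM of Gzmk was at least 6.93-fold higher. Prf1 (perforin), which forms the pore through which granzymes enter, had 3, 6 and 14 counts in the young and 45, 7 and 66 in the aged samples. Ctsw, a protease of cytotoxic cells, had 9, 6 and 7 counts in the young and 21, 3 and 54 in the aged samples. For Ctsw the deposited FPKM at 131 weeks was 0 where the count was 3, so the 2 tables do not assign reads in the same way.

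Of the 4 listed receptors of NK cells, Klrk1 and Klrd1 were above the young range at 127 and 136 weeks. The other 2, Klrb1c and Ncr1, had at most 17 counts in any sample. Klrk1 (NKG2D; chromosome 6, 129560341 to 129573882), which cytotoxic T cells also carry, had 5, 5 and 12 counts in the young and 34, 1 and 74 in the aged samples, with a log2 ratio of 2.38 ± 1.19 (SE) and, in edgeR, an adjusted p of 0.466. Klrd1 (CD94) had 3, 2 and 6 counts in the young and 11, 0 and 23 in the aged samples, with a log2 ratio of 1.69 ± 1.29 (SE) and, in edgeR, an adjusted p of 0.652. Klrb1c (NK1.1), by which NK and NK-like T cells are sorted in this strain, had 6, 8 and 0 counts in the young and 6, 0 and 17 in the aged samples. Ncr1 (NKp46), an activating receptor largely particular to NK cells and their innate relatives, had 0, 1 and 0 counts in the young and 0, 0 and 7 in the aged samples. At 127 weeks both Klrb1c and Ncr1 were within the young range, and at 131 weeks the 4 genes together had 1 count. The 4 genes summed to 2.80 FPKM at 136 weeks, beside 7.83 for the 4 genes of the receptor complex and 110 for the 7 cytotoxic genes.

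The T-box factors, which direct the cytotoxic programme in T and NK cells, were low in each sample. Tbx21 (T-bet) had 4, 3 and 13 counts in the young and 29, 5 and 35 in the aged samples, with a log2 ratio of 1.87 ± 0.91 (SE) and, in edgeR, an adjusted p of 0.455. Eomes had 1, 0 and 0 counts in the young and 6, 7 and 16 in the aged samples, with a log2 ratio of 4.47 ± 1.28 (SE), an unadjusted p of 0.00939 and, in edgeR, an adjusted p of 0.263. Eomes was the only one of these 2 that lay above the young range at 131 weeks.

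The promoters of 4 members that stand for the signalling and the cytotoxic part of the list are printed to show the sequence from which these transcripts start. They are RefSeq promoters of GRCm38.p6, from 250 bases before to 50 bases after the start, read on the strand of the gene, at chr9:45009562-45009861 (minus strand), chr4:129573592-129573891 (minus), chr7:43436888-43437187 (plus) and chr14:56262285-56262584 (minus). Capitals mark, on either strand, the RUNX core TGTGGT, the ETS core AGGAAG, the T-box core TCACAC and the TATA box TATAAA, and matches of different motifs may overlap.
Cd3e: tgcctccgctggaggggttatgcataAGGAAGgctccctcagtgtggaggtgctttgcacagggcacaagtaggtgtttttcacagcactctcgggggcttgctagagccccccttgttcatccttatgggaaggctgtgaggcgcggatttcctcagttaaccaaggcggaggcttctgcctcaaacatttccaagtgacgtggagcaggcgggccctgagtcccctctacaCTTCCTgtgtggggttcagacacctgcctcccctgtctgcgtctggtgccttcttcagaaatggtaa
Lck: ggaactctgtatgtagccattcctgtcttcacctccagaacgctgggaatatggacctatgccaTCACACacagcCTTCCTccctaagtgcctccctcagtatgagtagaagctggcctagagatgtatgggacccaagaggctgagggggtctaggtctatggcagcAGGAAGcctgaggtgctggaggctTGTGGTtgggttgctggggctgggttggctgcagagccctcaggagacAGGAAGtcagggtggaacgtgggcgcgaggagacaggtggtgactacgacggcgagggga
Nkg7: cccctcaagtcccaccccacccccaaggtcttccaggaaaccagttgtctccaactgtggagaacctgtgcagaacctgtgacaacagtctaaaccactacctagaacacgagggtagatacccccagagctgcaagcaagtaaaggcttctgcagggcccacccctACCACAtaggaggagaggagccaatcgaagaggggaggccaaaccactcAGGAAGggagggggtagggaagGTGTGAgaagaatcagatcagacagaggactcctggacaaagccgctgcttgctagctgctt
Gzmb: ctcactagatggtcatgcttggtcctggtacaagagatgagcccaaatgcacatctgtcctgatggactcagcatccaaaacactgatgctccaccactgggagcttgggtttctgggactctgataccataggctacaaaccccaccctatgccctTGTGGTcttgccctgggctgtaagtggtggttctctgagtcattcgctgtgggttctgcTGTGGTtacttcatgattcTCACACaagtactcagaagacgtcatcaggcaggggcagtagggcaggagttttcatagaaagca
A promoter was found by symbol for 24 of the 38 members, taking the first entry of a gene where there were several. The RUNX core was present in 10 of the 24 (41.7%), against 16.9% of 27025 promoters, the ETS core in 15 (62.5%, against 35.1%), the T-box core in 7 (29.2%, against 14.4%) and the TATA box in 1 (4.17%, against 14.2%). Nkg7 and Lck held RUNX, ETS and T-box cores, Gzmb held RUNX and T-box cores, and Cd3e held ETS cores alone. A match is a run of letters and not a measured binding site.

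Between the 2 high samples the ratio of levels was not the same for each gene. Over the 28 members with at least 10 counts in both, the CPM at 136 weeks was a median of 3.35 times that at 127 weeks, and it ranged from 0.940 for Cd27 to 18.6 for Pdcd1. Ptprc, which encodes CD45, was 3.39 times as high, with 13 members above and 15 below that ratio. Cd8b1, Cd6, Tbx21 and Prf1 had ratios of 1.42, 1.56, 1.43 and 1.73, and Zap70 a ratio of 10.4. No test of these ratios was possible with 1 sample at each age.

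Genes of several other blood cells were also above the young range, those of B cells mainly at 136 weeks. Ptprc had 42, 26 and 54 counts in the young and 220, 33 and 631 in the aged samples, the same order of the 3 aged samples as for the summed list. Of 17 pan-leukocyte genes, 12, 1 and 15 exceeded the highest young sample at 127, 131 and 136 weeks. Of 16 Kupffer cell, macrophage and monocyte genes 9, 0 and 13 did so, and of 9 neutrophil genes 5, 4 and 8. Of 15 B cell and plasma cell genes 2, 2 and 9 did so. Over all genes tested the shares were 30.5%, 26% and 34.1% at these ages. The 127-week sample thus had T cell genes above the young range with few B cell genes above it. The summed CPM of the Kupffer cell list was 131 to 145 in the young samples and 251, 42.0 and 583 in the aged samples, and that of the B cell list 7.63 to 12.3 and 7.67, 6.81 and 29.5. The pan-leukocyte sum, 444 to 468 CPM in the young and 343, 365 and 610 in the aged samples, holds Arhgdib, an abundant gene with 4629 to 10431 counts per sample that was lowest at 136 weeks. The part of these cells in the values of the T and NK cell genes was not tested.

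**Figure D4:**
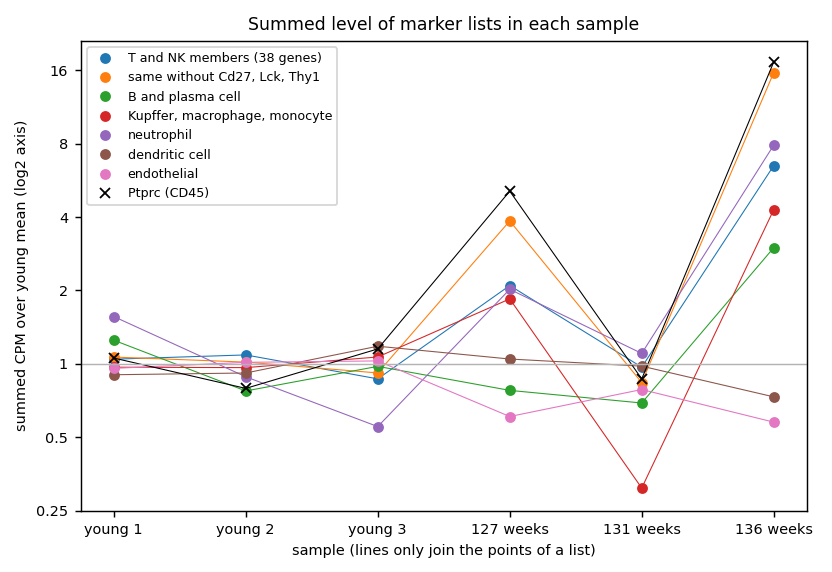
Summed CPM of marker lists, and the CPM of Ptprc, in each sample divided by the mean of the 3 young samples, on a log2 axis. The list of 38 genes stands at 2.10, 0.969 and 6.50 at 127, 131 and 136 weeks, and the endothelial list at 0.608, 0.784 and 0.576.

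Relative to Ptprc, the 38 genes had 19.7, 27.3 and 15.0 counts per Ptprc count in the young and 8.16, 22.2 and 7.48 in the aged samples, so that the 127- and 136-week samples lay below each young sample. Without Cd27, Lck and Thy1, a choice made after seeing the values, the ratios were 6.24, 7.92 and 4.93 in the young and 4.66, 5.97 and 5.59 in the aged samples. The 131- and 136-week ratios lay within the young range and the 127-week ratio just below it. The young ratios rest on 42, 26 and 54 Ptprc counts and have no interval, so a gap this small cannot be read. Of the other lists, 2, 0 and 1 of 10 hepatocyte genes, 1, 2 and 6 of 10 stellate and mural cell genes, 1, 2 and 1 of 7 platelet genes and 1, 1 and 4 of 9 dendritic cell genes exceeded the highest young sample at 127, 131 and 136 weeks. Of 16 endothelial genes 1, 0 and 2 did so. Over all genes tested the shares were 30.5%, 26% and 34.1%. Of the endothelial genes 12, 10 and 10 were below the lowest young sample, for which no share over all genes was taken. Whether this bears on the T and NK cell genes was not tested.

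A further 66 genes of T and NK cells outside the list were read as well, of which 46 were tested, 14 were higher by the unadjusted rule and 0 were lower, against 5.43% and 1.19% of all genes tested. Of the 66, 41, 11 and 52 exceeded the highest young sample at 127, 131 and 136 weeks, against 30.5%, 26% and 34.1% of genes tested. Their summed CPM was 0.979, 0.800 and 1.46 times the young mean at these ages, unlike the sum of the 38. Gimap5 and Prkcq, the 2 with the highest mean CPM, had 79.3 to 99.0 and 66.9 to 108 CPM over the 6 samples. Ptpn22, a phosphatase that restrains receptor signalling, had 6, 2 and 0 counts in the young and 62, 11 and 181 in the aged samples. Fasl, the ligand by which cytotoxic cells trigger death receptors, had 0, 0 and 0 counts in the young and 23, 1 and 29 in the aged samples. Ifng, the cytokine interferon-gamma, had 0, 0 and 0 counts in the young and 6, 0 and 16 in the aged samples. Klrc1 (NKG2A), the partner of CD94, had 0, 0 and 0 counts in the young and 24, 0 and 49 in the aged samples. These 4 genes were chosen after their values were seen. Ccr7, a homing receptor of naive and central memory T cells that other leukocytes also carry, had 29, 11 and 47 counts in the young and 116, 35 and 552 in the aged samples. Among the others of the 14 were Themis, Gata3, Runx3, Klrb1f, Havcr2, Tnfrsf9, Gimap3 and Ly9, with log2 ratios from 2.21 to 3.76 and adjusted p from 0.235 to 0.387 in edgeR. Foxp3, the factor of regulatory T cells, had at most 4 counts in any sample, and Il17a had 0 counts in all 6.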

How the data were processed

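RNA of CD31+CD45- liver cells in 3 young and 3 aged samples was read in 75-base single-end mode. Per the labels and the methods, the authors called bases with CASAVA 1.8.2, mapped reads to mm9 with TopHat2 2.1.0 and deposited raw whole-number counts for each gene symbol, and FPKM values from Cuffnorm 2.2.1, as the submitters' processing notes name the tools. The counting program, its annotation and its strand setting are not given in the sources used here. The FPKM values were used for levels between genes and as an alternative.

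Of 24421 genes the 14612 that reached 0.5 CPM in any sample entered the fit, were scaled by TMM and compared between ages with the quasi-likelihood test of edgeR 4.0.16 (R 4.3.3), with Benjamini-Hochberg adjustment over all genes in the fit and thresholds of 0.05 on p and 1 on the log2 ratio. The SE of a log2 ratio was taken from its F statistic (ratio over root F). Lists of other cell types were described by counts and sums, with no test, and 2 of their names, Igj and Emr1, had no row. Summing without Cd27, Lck and Thy1 and leaving out samples from the sums were chosen after seeing the data. DESeq2 1.42.0, limma 3.58.1, other filters and scalings, FPKM with pseudocounts of 0.1 and 1, a term for the library cluster and the removal of each sample were alternatives. Positions are those of GENCODE M1 (mm9). Among the members, at most 1.12% of the 75-base stretches of a transcript occurred in another gene.

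Single values of some genes of the other lists are not reported here. The members and lists, and the motifs, were chosen with earlier results of these data known. Every member has its counts given, and the 2 of smallest p in each role group their log2 ratio, to which those of Cd27 and Thy1 were added after their values were seen.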

Additional observations from a re-analysis of the deposited data

How the results depend on the processing

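No paired analysis was possible because the labels number the young samples alone. The smallest adjusted p over all genes was 0.0735 in edgeR. Genes higher and lower were counted at an adjusted p below 0.05 with a log2 ratio beyond 1 in size. They numbered 395 and 79 with DESeq2's Wald test, 13 and 2 with limma-voom and quality weights, and 3 and 1 without a filter. With a term for the library cluster they numbered 1 and 1, and with each sample left out 0 to 1 and 0. At an unadjusted p below 0.05 with the same limit on the ratio, the numbers were 793 and 174. They were 234 and 81 with limma on log2(FPKM + 1), and 393 to 1123 and 131 to 285 with each sample left out. Members higher by that rule numbered 12, but 5 and 1 with limma on log2(FPKM + 0.1) and log2(FPKM + 1), 0 of the 6 that passed the strict filter, of which also 0 had aged values wholly above young, and 1 to 24 with each sample left out, where 3 to 26 had no overlap. Their median log2 fold change of 2.68 became 0.99 with the strict filter, 1.51 with limma-voom, 1.21 and 0.48 with limma on log2(FPKM + 0.1) and log2(FPKM + 1), which draws low genes towards 0, and 1.33 to 3.25 with each sample left out. The log2 ratio of Pdcd1, -0.70 to 3.53 with each sample left out, was below 0 without the 136-week sample. No other value of the 16 members named by p changed direction where it could be fitted, which was 12 of the 16 without the 136-week sample, 1 with the strict filter and all 16 otherwise. DESeq2 brought Ccl5, Nkg7, Sh2d2a and Cd3e of these past the threshold (adjusted p = 1.02e-04, 0.00588, 0.0120 and 0.0356). Ccl5, Nkg7 and Cd3e had passed the filter through aged samples alone. Over all its alternatives the adjusted p of Ccl5 ran from 1.02e-04 to 0.625, and those of Nkg7, Sh2d2a and Cd3e reached 0.652, 0.659 and 0.649. Most members stood near the floor of 3 counts in the young samples, and differences of a few counts were not detectable at this depth.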
